A study of Mus musculus with 12 samples.

Results

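Lysosomal glycosidases and sulfatases are the enzymes that take sugars and sulfate groups off glycogen, glycolipids, glycoproteins and glycosaminoglycans. The 27 genes described here were chosen by name, with no threshold on their values but with earlier results of these data known. The shares over all genes given below therefore describe these genes and do not test them as a set. All 27 were found among the 55487 genes of the deposited hippocampal table. They were measured by RNA sequencing in hippocampi of 6 wild type (WT) and 6 USF-1 deficient (USF-1 KO) mice, with 1 library for each mouse. The protein USF-1 regulates transcription from the DNA element CACGTG, known as the E-box. All mice were littermates on the C57Bl/6JRccHsd strain, 3 to 4 months old and untreated. By the sample labels, the WT group held 4 females and 2 males, and the USF-1 KO group held 2 females and 4 males. A figure legend of the paper instead gives 3 of each sex per genotype, and the labels were used here. No promoter or Cre line that would limit the deficiency to a cell type is named, and the controls carried no deletion.

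The values are read counts, scaled by the authors with 1 size factor per library, and are called normalised counts below. Between 21679622 and 32091173 reads fell on genes in a library. Usf1 (ENSMUSG00000026641) had 1409 ± 284 normalised counts (SD, n = 6) in WT and 141 ± 15.0 in USF-1 KO, with no overlap (limma, adjusted p = 1.77e-08), so the targeted gene separated the mice as labelled. The WT mice 490 and 493 stood apart from the rest: their summed counts of 9 choroid plexus markers were 58546 and 165410, against 859 to 2821 in the other 10 mice. Results that rest on these mice are therefore given with and without them. In tissue RNA of this kind, fewer cells of a type and less RNA per cell cannot be told apart.

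Lysosomal hydrolases are made in the endoplasmic reticulum, receive a mannose 6-phosphate tag in the Golgi and are carried by its receptors to the lysosome. There they work in sequence from the end of a sugar chain, so that loss of a single enzyme leaves its substrate to pile up. Inherited loss of many of them causes storage diseases, several of which damage the brain. Sulfatases need a further step, the conversion of a cysteine in their active site by the factor encoded by Sumf1. The 27 genes are not all soluble lysosomal proteins: Hgsnat encodes an acetyltransferase of the lysosomal membrane, Hyal2 a hyaluronidase anchored to the cell surface, and Sumf1 and its relative Sumf2 proteins of the endoplasmic reticulum.

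The E-box was searched in promoter windows from RefSeq (build GRCm38.p6), which ran from 250 bases before to 50 bases after the start of each gene. Windows were present for 24 of the 27 genes. Galns, Hgsnat and Aga had no entry. CACGTG, which reads the same on both strands, was found in the windows of 7 of these 24 genes. It was found in 7.15% of all 32851 windows and, by gene, in 11.2% of the 12147 tested genes with a window. The longer GTCACGTG, which contains it and was searched on both strands, was found in 6 of the 24 genes, compared with 4.37% of the tested genes. Sequences of Gaa, Sgsh and Arsa are shown first because they come from genes whose RNA was lower in USF-1 KO, and those of the other genes with the element follow. Capitals mark CACGTG, each sequence runs 5′ to 3′ on the strand of its gene, and the number of bases from the element to the RefSeq start follows below.
Gaa, chr11:119267811-119267840, forward strand: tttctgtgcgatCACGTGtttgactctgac
Sgsh, chr11:119355522-119355551, reverse strand: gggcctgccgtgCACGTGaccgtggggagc
Arsa, chr15:89477423-89477452, reverse strand: tcaactcagtgtCACGTGttgtctgctcct
Glb1, chr9:114401018-114401047, forward strand: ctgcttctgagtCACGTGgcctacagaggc
Naglu, chr11:101070009-101070038, forward strand: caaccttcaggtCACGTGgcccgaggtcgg
Sumf1, chr6:108185577-108185606, reverse strand: agcaccacaggtCACGTGatctccatgggt
Gla, chrX:134601182-134601211, reverse strand: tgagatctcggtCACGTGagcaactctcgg
Gla, chrX:134601215-134601244, reverse strand: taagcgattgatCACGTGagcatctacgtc

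The element ended 135 bases before the start in Gaa, 24 bases before it in Sgsh and 11 bases before it in Arsa. In the remaining genes it ended 43 bases (Glb1), 68 bases (Naglu) and 6 bases (Sumf1) before the start, and Gla held it at 189 and 222 bases. Gaa was the only one of the 7 genes whose element was not part of GTCACGTG. The windows of Hexa, Idua, Fuca2 and Manba, whose RNA was also lower in USF-1 KO, did not contain these letters. A match in a window describes the sequence and not a bound site.

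The main question for these genes was whether their RNA differed between the genotypes. Of the 27 genes, 7 were lower in USF-1 KO and 0 were higher at an adjusted p under 0.05 (limma on log2 normalised counts with a pseudocount of 1). Among all 18221 tested genes, 0.741% were called lower and 0.159% were called higher. The 7 genes were Gaa, Hexa, Sgsh, Idua, Arsa, Fuca2 and Manba, and their log2 fold changes ran from −0.80 to −0.30. A further 10 genes had an unadjusted p under 0.05 without passing the adjusted threshold, 8 of them with a negative and 2 with a positive fold change. Together with the 7 called genes, 17 of the 27 had an unadjusted p under 0.05. Over all tested genes, called ones included, 13.5% had such a p, 7.6% with a negative and 5.92% with a positive fold change. The last 10 genes had log2 fold changes between −0.10 and 0.11 and adjusted p between 0.439 and 0.981. In all, 21 of the 27 fold changes were below 0, compared with 50.2% of all tested genes, and the median was −0.17 on the log2 scale, compared with −0.00065 over all tested genes. EdgeR and DESeq2 on the recovered reads also called 0 of the 27 genes higher, compared with 0.132% and 0.713% of all tested genes.

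**Figure D1:**
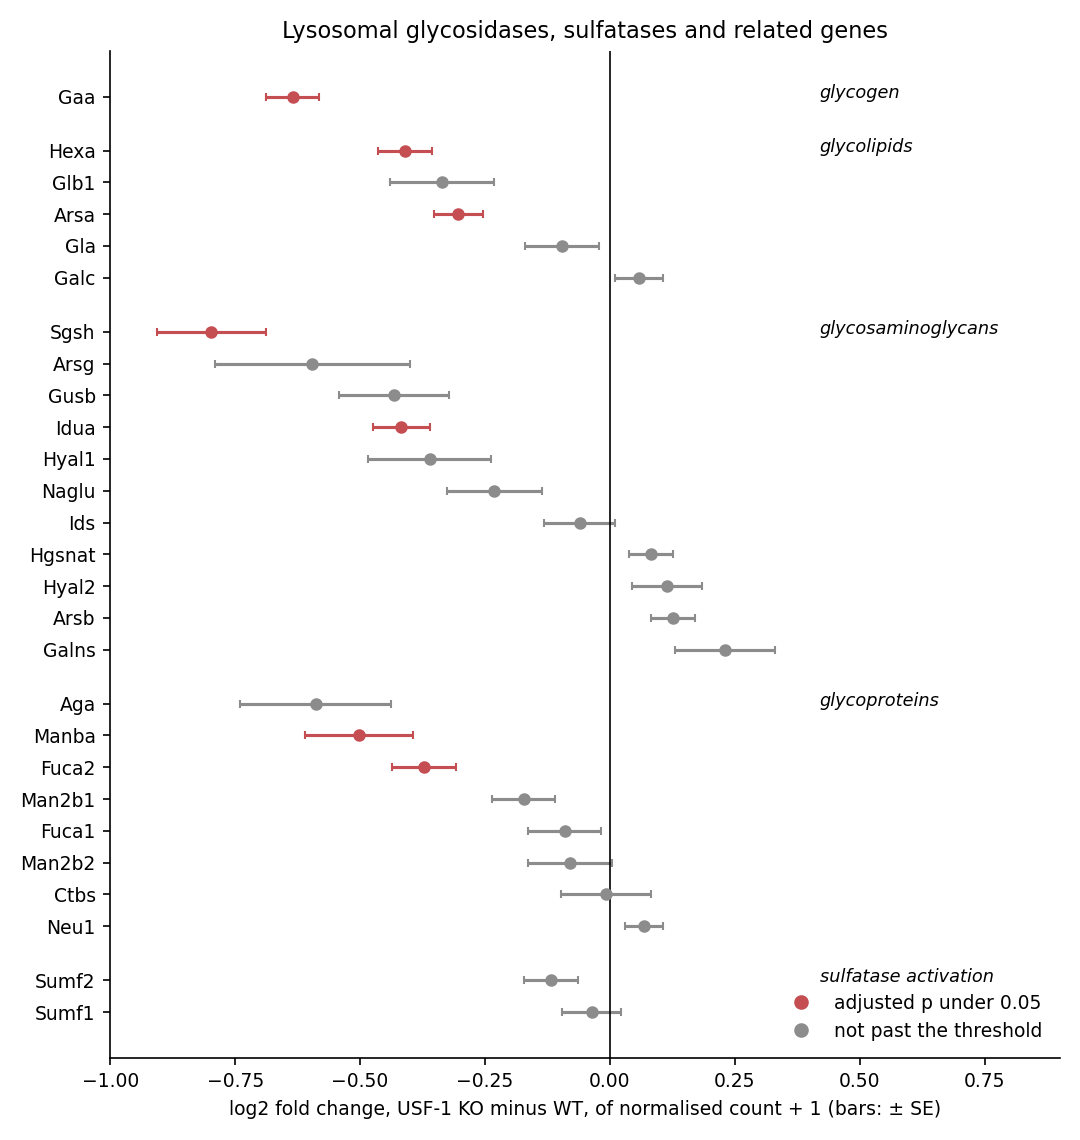
Log2 fold change (USF-1 KO minus WT) of the 27 genes, grouped by substrate, with bars of 1 standard error from the limma fit over all tested genes (6 mice per genotype). The 7 genes past the adjusted threshold all lie left of 0, from −0.80 for Sgsh to −0.30 for Arsa, while Galns and Arsb lie to the right of 0 without passing it.

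Gaa encodes acid alpha-glucosidase, the only enzyme of the lysosome that breaks glycogen down to glucose, and its loss causes Pompe disease. Gaa (ENSMUSG00000025579, chromosome 11 from 119267887 to 119285454, forward strand) had 9707 to 11577 normalised counts in WT with a median of 10773, and 6073 to 7344 in USF-1 KO with a median of 7039. The highest USF-1 KO mouse lay well below the lowest WT mouse, so the genotypes did not overlap. The mean of USF-1 KO was 64.5% of the WT mean, with a log2 fold change of −0.63 (SE 0.05, limma adjusted p = 4.51e-05). By unadjusted p it ranked 4 among all tested genes. Its spread between mice was small in both groups, 629 (SD, n = 6) in WT and 477 in USF-1 KO.

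Of the 5 genes that act on glycolipids, Hexa and Arsa fell and 3 did not pass the threshold. Hexa encodes the alpha subunit of beta-hexosaminidase, which removes a sugar from the ganglioside GM2 and is defective in Tay-Sachs disease. Hexa (ENSMUSG00000025232, chromosome 9 from 59539540 to 59565109, forward strand) had 1173 to 1391 normalised counts in WT with a median of 1242, and 904 to 1050 in USF-1 KO with a median of 944. Every USF-1 KO mouse was below every WT mouse. The USF-1 KO mean was 75.2% of the WT mean, a log2 fold change of −0.41 (SE 0.05, limma adjusted p = 0.00277).

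Arsa encodes arylsulfatase A, which takes the sulfate off sulfatide, a lipid of myelin, and is the enzyme missing in metachromatic leukodystrophy. Arsa (ENSMUSG00000022620, chromosome 15 from 89472476 to 89477425, reverse strand) had 824 to 955 normalised counts in WT with a median of 870, and 662 to 762 in USF-1 KO with a median of 713. The groups did not overlap, though the gap was narrower than for Gaa. The log2 fold change was −0.30 (SE 0.05, limma adjusted p = 0.0105), the smallest of the 7.

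The other glycolipid genes were not called. Glb1 encodes lysosomal beta-galactosidase, which acts on the ganglioside GM1 and on keratan sulfate. It had 528 ± 101 normalised counts (SD, n = 6) in WT and 414 ± 34.5 in USF-1 KO (log2 fold change −0.34, limma adjusted p = 0.158). Its WT values spread widely, from 414 to 715, and the USF-1 KO values, from 384 to 473, overlapped them. Gla, the alpha-galactosidase missing in Fabry disease, and Galc, the galactosylceramidase missing in Krabbe disease, had log2 fold changes of −0.10 and 0.06 with adjusted p of 0.619 and 0.651.

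Glycosaminoglycans, the sulfated sugar chains of proteoglycans, were the substrate of the largest group, with 11 genes. Sgsh and Idua fell, 0 rose, and the median log2 fold change of the 11 was −0.23. Sgsh encodes sulfamidase, which removes sulfate from the glucosamine of heparan sulfate and is missing in Sanfilippo syndrome type A. Sgsh (ENSMUSG00000005043, chromosome 11 from 119343425 to 119355536, reverse strand) had 196 to 281 normalised counts in WT with a median of 237, and 115 to 170 in USF-1 KO with a median of 132. The genotypes were separate. The USF-1 KO mean was 57.5% of the WT mean, with a log2 fold change of −0.80 (SE 0.11, limma adjusted p = 0.00305), the largest fall among the 27 genes.

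Idua encodes alpha-L-iduronidase, which cuts iduronic acid from heparan sulfate and dermatan sulfate and is missing in Hurler syndrome. Idua (ENSMUSG00000033540, chromosome 5 from 108660331 to 108684557, forward strand) had 449 to 548 normalised counts in WT with a median of 468, and 351 to 392 in USF-1 KO with a median of 357. Again all USF-1 KO mice lay below all WT mice. The log2 fold change was −0.42 (SE 0.06, limma adjusted p = 0.00305).

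Of the 9 other genes of this group, 6 had an unadjusted p under 0.05. Gusb, the beta-glucuronidase often used as a marker of lysosomal activity, had 307 ± 25.5 normalised counts (SD, n = 6) in WT and 230 ± 39.5 in USF-1 KO (log2 fold change −0.43, limma adjusted p = 0.0905). Its highest USF-1 KO mouse, at 277.0, was just under its lowest WT mouse, at 277.3. With Gusb, 8 of the 27 genes had every USF-1 KO mouse below every WT mouse, compared with 1.08% of all tested genes, and 0 had the opposite order, compared with 0.423%. Arsg, a sulfatase of heparan sulfate, had one of the larger differences in means, 778 ± 233 in WT and 499 ± 89.4 in USF-1 KO, with a log2 fold change of −0.60. Relative to its mean it was also the gene with the widest spread in WT, from 403 to 1086, and its adjusted p was 0.183 (limma). Hyal1, a lysosomal hyaluronidase, had 128 ± 20.3 and 99.8 ± 14.6 normalised counts (log2 fold change −0.36, limma adjusted p = 0.204). Naglu, the alpha-N-acetylglucosaminidase of heparan sulfate, had 233 ± 40.0 and 196 ± 10.9 (log2 fold change −0.23, limma adjusted p = 0.293).

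In the same group, 2 genes had an unadjusted p under 0.05 with higher means in USF-1 KO. Arsb, the arylsulfatase of dermatan and chondroitin sulfate, had 3577 ± 118 normalised counts (SD, n = 6) in WT and 3910 ± 263 in USF-1 KO (log2 fold change 0.13, limma adjusted p = 0.218). Galns, the sulfatase of keratan sulfate and of chondroitin 6-sulfate, had 282 ± 50.4 and 328 ± 21.6 (log2 fold change 0.23, limma adjusted p = 0.325). Among the remaining genes, Hgsnat, which acetylates the glucosamine that Sgsh exposes, had a log2 fold change of 0.08, Hyal2 of 0.11 and Ids, the iduronate sulfatase missing in Hunter syndrome, of −0.06. Thus, within the heparan sulfate enzymes, Sgsh and Idua fell, whereas Ids, Hgsnat, Naglu, Gusb and Arsg did not pass the threshold. Whether these fold changes differ from each other was not tested.

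Of the 8 glycoprotein genes, Fuca2 and Manba fell, and 7 of the 8 fold changes were below 0. Fuca2 encodes a secreted and lysosomal alpha-fucosidase. Fuca2 (ENSMUSG00000019810, chromosome 10 from 13499540 to 13519035, forward strand) had 743 to 848 normalised counts in WT with a median of 771, and 550 to 687 in USF-1 KO with a median of 600. The values did not overlap. The log2 fold change was −0.37 (SE 0.06, limma adjusted p = 0.0146), while its relative Fuca1, the main lysosomal fucosidase, had a log2 fold change of −0.09 and an adjusted p of 0.629.

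Manba encodes beta-mannosidase, which removes the mannose next to the chitobiose core of N-glycans. Manba (ENSMUSG00000028164, chromosome 3 from 135485611 to 135571404, forward strand) had 233 to 305 normalised counts in WT with a median of 273, and 147 to 225 in USF-1 KO with a median of 195. The groups lay close but apart. The USF-1 KO mean was 70.7% of the WT mean, with a log2 fold change of −0.50 (SE 0.11). Its limma adjusted p of 0.0456 was the closest to the threshold, and it rose above the threshold in 9 of the 12 fits that left out 1 mouse, with a range of 0.0290 to 0.131. At the other side of the threshold the nearest genes were Gusb and Aga.

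Aga encodes aspartylglucosaminidase, which splits the sugar from asparagine in the last step on N-glycans. It had 120 ± 28.6 normalised counts (SD, n = 6) in WT and 78.4 ± 11.6 in USF-1 KO, with a log2 fold change of −0.59 (SE 0.15, limma adjusted p = 0.0930). Its lowest WT mouse, at 88.6, lay below its highest USF-1 KO mouse, at 93.8. Man2b1, the lysosomal alpha-mannosidase, had 1289 ± 127 and 1140 ± 66.7 normalised counts (log2 fold change −0.17, limma adjusted p = 0.231). Neu1, the lysosomal sialidase, was the only gene of this group with a positive value, 0.07 on the log2 scale. Man2b2, a further alpha-mannosidase, had −0.08, and Ctbs, the di-N-acetylchitobiase, had −0.01. Their adjusted p were between 0.456 and 0.981.

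The sulfatase-activating factor gene Sumf1 and its relative Sumf2 were not called. Sumf1 had 515 ± 45.2 normalised counts (SD, n = 6) in WT and 500 ± 19.2 in USF-1 KO (log2 fold change −0.04, limma adjusted p = 0.831). Its promoter window held GTCACGTG. Sumf2 had 306 ± 13.9 and 282 ± 14.9 (log2 fold change −0.12, limma adjusted p = 0.358). Of the 6 sulfatases among the genes, Sgsh and Arsa fell and Arsg, Ids, Arsb and Galns did not pass the threshold. Of the 7 genes with the E-box in the window, 3 fell (Gaa, Sgsh and Arsa), and of the 17 without it, 4 fell.

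**Figure D2:**
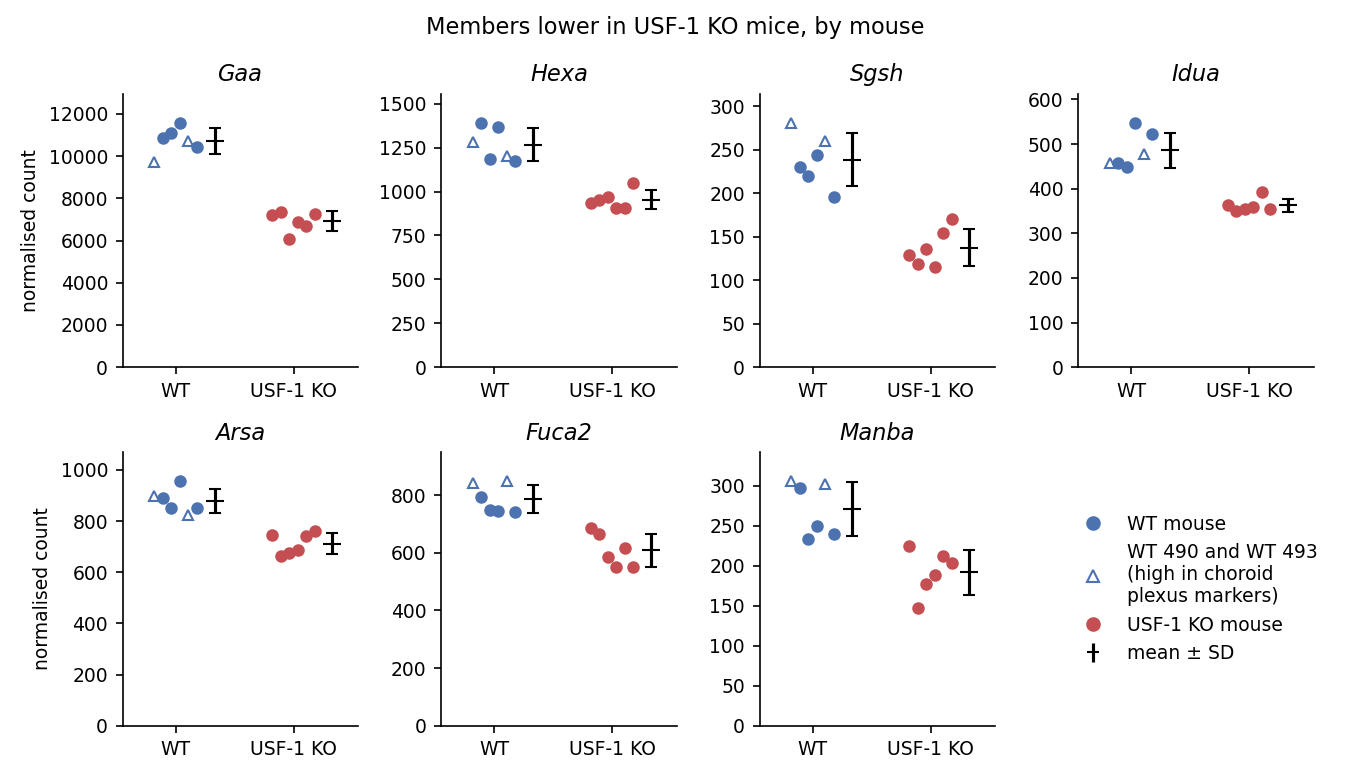
Normalised counts of the 7 genes that were lower in USF-1 KO, with 1 point for each mouse, WT and USF-1 KO side by side, and the mean with 1 SD of each group. In every panel the 6 USF-1 KO mice lie below the 6 WT mice, with the widest gap for Gaa, where WT starts at 9707 and USF-1 KO ends at 7344.

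Genes that overlap these 7 or start within 10 kb of them were examined next, since reads of overlapping genes on opposite strands cannot be told apart when counting does not use strand, and the methods do not state it. Sgsh and Slc26a11, which encodes an anion transporter, start 21 bases apart on opposite strands and do not overlap. Slc26a11 (chromosome 11 from 119355557 to 119381079, forward strand) had 111 to 161 normalised counts in WT with a median of 142, and 78.5 to 87.4 in USF-1 KO with a median of 83.2. All USF-1 KO mice were below all WT mice, as for Sgsh. Its mean in USF-1 KO was 60.2% of that in WT, with a log2 fold change of −0.71 (SE 0.10, limma adjusted p = 0.00392). The E-box shown above for Sgsh, at bases 119355534 to 119355539, covers the first annotated bases of Sgsh. It also reaches into the gap before the start of Slc26a11. Whether the element acts on either gene was not tested. The RefSeq start of Sgsh lies further inside the gene. At its other end Sgsh overlaps Card14 by 1951 bases, and Card14 had 11.0 ± 4.90 normalised counts in WT and 11.1 ± 4.75 in USF-1 KO.

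At the start of Hexa, a gene on the opposite strand moved the other way. Tmem202 (chromosome 9 from 59518685 to 59539847, reverse strand), which encodes a transmembrane protein, overlaps the first 308 bases of Hexa. Tmem202 had 11.1 to 38.6 normalised counts in WT with a median of 22.8, and 57.8 to 94.4 in USF-1 KO with a median of 70.0. All USF-1 KO mice were above all WT mice, the reverse of the order in Hexa. Its log2 fold change was 1.65 (SE 0.23, limma adjusted p = 0.00305), while that of Hexa was −0.41.

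The neighbours of the other genes were not called. Idua overlaps Dgkq by 9342 bases and Slc26a1 by 5692 bases, both on the opposite strand. Dgkq, a diacylglycerol kinase, had a log2 fold change of −0.05 (limma adjusted p = 0.635), and Slc26a1, a sulfate transporter, had 31.0 ± 7.63 normalised counts in WT and 46.0 ± 9.71 in USF-1 KO (log2 fold change 0.57, limma adjusted p = 0.177). Arsa overlaps the antisense gene C230037L18Rik, which had a log2 fold change of −0.03 (limma adjusted p = 0.895). CACGTG was also found in promoter windows of Dgkq, Slc26a1 and C230037L18Rik, though another window of Slc26a1 lacked it. Of 3 pseudogenes at Manba, the only tested one, Oaz2-ps, had −0.02 (limma adjusted p = 0.964). Gaa and Fuca2 had 0 such neighbours. Gaa and Sgsh lie on the same chromosome with 57970 bases between them, and the only tested gene wholly in that interval, Eif4a3, an RNA helicase of the exon junction complex, had a log2 fold change of −0.02 (limma adjusted p = 0.915).

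**Figure D3:**
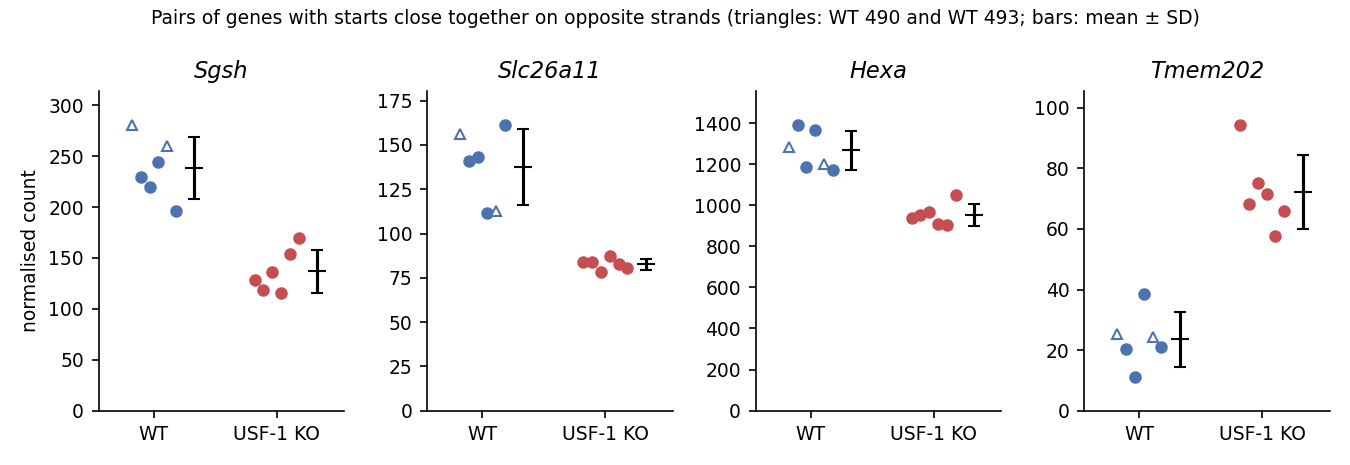
Normalised counts in each mouse for Sgsh and Slc26a11 and for Hexa and Tmem202, pairs of genes whose starts lie close together on opposite strands, with the mean and 1 SD of each genotype and triangles for WT 490 and WT 493. Slc26a11 is lower in all USF-1 KO mice, with 78.5 to 87.4 against 111 to 161 in WT, whereas Tmem202 is higher, with 57.8 to 94.4 against 11.1 to 38.6.

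Levels of different genes were compared only after dividing by exon length. Per kb of exon, Ids and Gaa were the most abundant of the 27 genes in WT, with 2273 ± 304 and 2242 ± 131 normalised counts per kb (SD, n = 6), which differed by less than their spread. In USF-1 KO, Ids had 2167 ± 94.1 and Gaa 1445 ± 99.8 per kb, so that Gaa was lower than Ids there by more than the spread. Hexa came next in WT at 635 ± 47.4, close to Arsb at 593 ± 19.5, and in USF-1 KO the order of the means was the reverse, with Hexa at 477 ± 27 and Arsb at 648 ± 43.6. At the lower end, Ctbs had 27.2 ± 3.61, Hyal1 34.0 ± 5.36 and Manba 38.9 ± 4.83 normalised counts per kb in WT. Hyal1 and Manba did not differ beyond their spread. The 7 genes that fell were therefore found at high levels (Gaa) and at low levels (Manba, and Sgsh at 54.0 ± 6.83 per kb in WT).

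Variation between mice was described by the coefficient of variation of each gene. The median coefficient of variation of the 27 genes was 10.4% in WT and 5.97% in USF-1 KO, and it was larger in WT for 17 of the 27 genes. These WT values include WT 490 and WT 493, and no coefficient was computed without them. Leaving both out changed the WT SD of Naglu from 40.0 to 6.66. That of Ids went from 1549 to 1995, with the high Ids value of WT 522 (14588) still included. The wider WT variation is therefore not separated from these mice. By mouse, WT 493 had the highest WT value for 12 of the 27 genes. On the mean of the centred log2 values, the 20 genes that were not called reached 0.27 in WT 493 and 0.11 in WT 490, while the remaining 4 WT mice had −0.01 to 0.03 and the USF-1 KO mice −0.11 to 0.02. For the 7 called genes the same mean was 0.16 to 0.30 in WT and −0.32 to −0.16 in USF-1 KO, a separation that the choice of called genes fixes. KO 482 had the highest USF-1 KO value for 13 of the 27 genes.

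**Figure D4:**
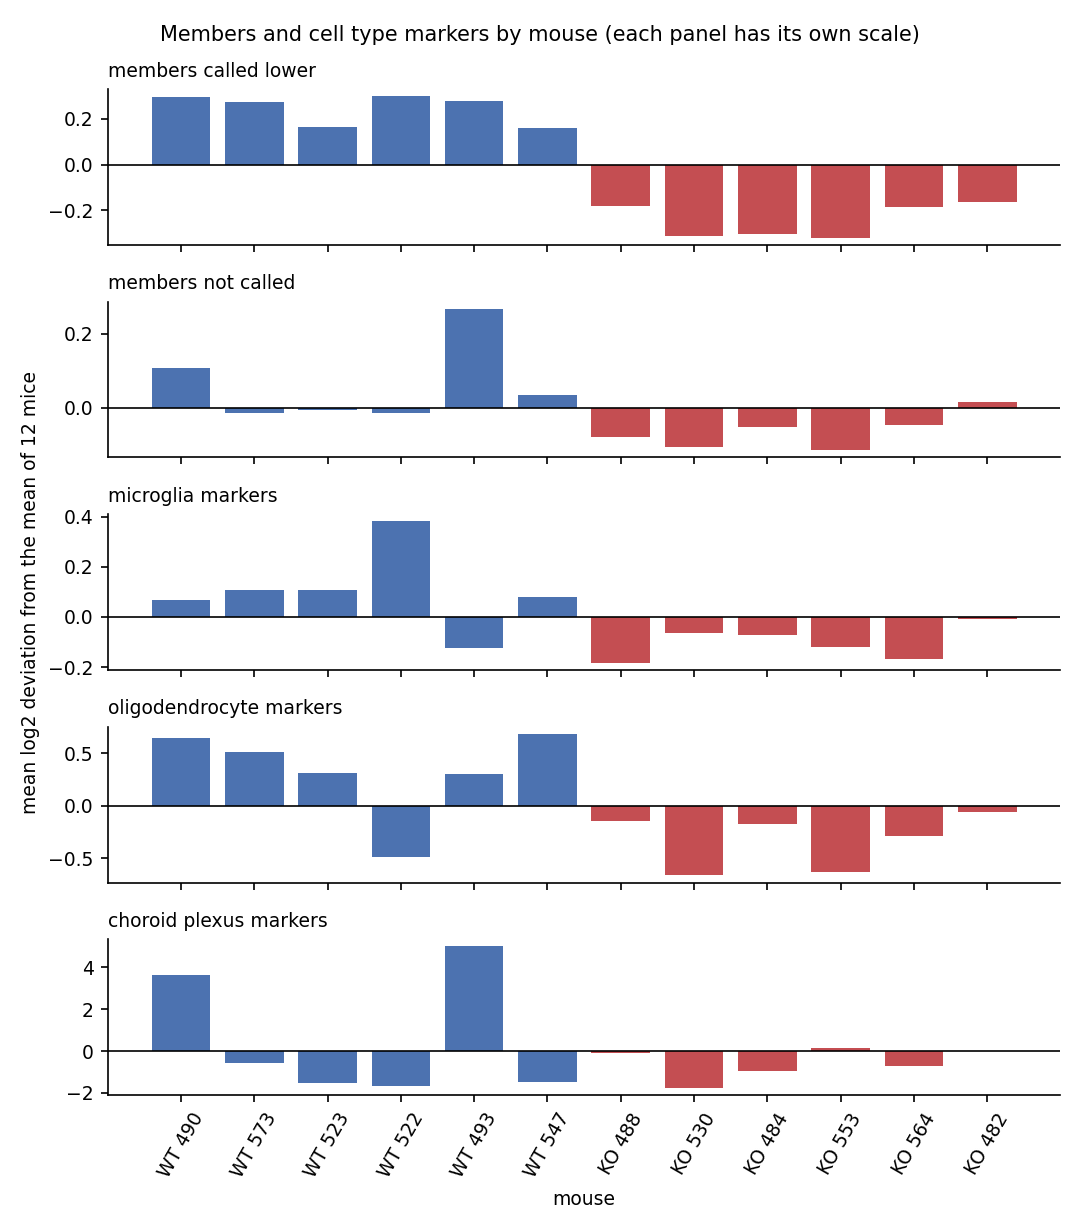
Mean log2 deviation from the mean of 12 mice, as 1 bar per mouse (WT blue, USF-1 KO red, own scale per panel), for the 7 called genes, the 20 genes that were not called, and markers of choroid plexus, oligodendrocytes and microglia. The 20 genes reach 0.27 in WT 493 and 0.11 in WT 490, the pair of mice with high choroid plexus markers, and lie between −0.11 and 0.03 in the others.

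Markers of other cell types were examined in the same fit. All 9 choroid plexus markers had negative fold changes with a median of −1.18 on the log2 scale, and 0 of 9 passed in limma, with 0 at an unadjusted p under 0.05, 0 in edgeR and 4 in DESeq2. Their summed level was 859 to 165410 in WT and 994 to 2821 in USF-1 KO. Without WT 490 and WT 493 it was 859 to 1484 in the remaining 4 WT mice, so the lower values in USF-1 KO rest on these mice. All 8 oligodendrocyte markers were negative with a median of −0.66, and their summed level was 85831 to 185805 in WT and 73991 to 113248 in USF-1 KO. Of these 8 markers, 0 passed in limma and in edgeR, 8 had an unadjusted p under 0.05 and 8 passed in DESeq2.

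Microglia, which express many lysosomal genes, had 8 of 8 markers with negative values, a median of −0.21 and summed levels of 6964 to 9772 in WT and 6649 to 7482 in USF-1 KO. Of these, 6 had an unadjusted p under 0.05 and 0 passed in limma, edgeR or DESeq2. Medians of the astrocyte, endothelium, excitatory neuron and inhibitory neuron markers were −0.01, 0.03, 0.13 and −0.03. No marker of these lists was at 0 in any mouse. The part of oligodendrocytes and microglia in the differences of the 27 genes was not tested.

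Without WT 490 and WT 493, 4 WT mice remained against 6 USF-1 KO mice, and 5 of the 27 genes were lower (0.263% of all tested genes) and 0 were higher (0.0604%). Gaa had a log2 fold change of −0.67 (limma adjusted p = 1.45e-04), Hexa −0.42 (0.0171), Sgsh −0.70 (0.0273), Idua −0.44 (0.0199) and Arsa −0.32 (0.0412). The fold changes of Gaa, Hexa, Idua and Arsa were close to those in all 12 mice, while that of Sgsh went from −0.80 to −0.70. Fuca2 had −0.32 with an adjusted p of 0.0920 and Manba −0.42 with 0.236, so both were no longer called in this smaller set. WT 490 and WT 493 had the highest WT values of Sgsh, Fuca2 and Manba, but not of the other 4 called genes. Among genes that were not called in either set, Arsg went from −0.60 to −0.38, Naglu from −0.23 to −0.11 and Glb1 from −0.34 to −0.24, while Galns went from 0.23 to 0.21 and Ids had −0.06 in both. Over the 27 genes, 18 fold changes were below 0 and the median was −0.11. Slc26a11 and Tmem202 kept their calls, with −0.73 (limma adjusted p = 0.0157) and 1.73 (0.0199).

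DESeq2 on the recovered reads called 10 of the 27 genes lower, where it called 2.64% of all tested genes lower. The 3 added genes were Gusb (adjusted p = 0.0109), Aga (0.0116) and Arsg (0.0248). The edgeR quasi-likelihood test called 6, all of the 7 except Manba, where it called 0.697% of all tested genes lower. WT 522 had the lowest WT values of Arsg (403) and Aga (88.6). It also had the lowest oligodendrocyte and the highest microglia markers in WT. Leaving it out gave 9 lower genes, with Arsg (limma adjusted p = 0.00879) and Aga (0.0285) added. Of all tested genes, 2.23% were called lower. In that fit 0 of the 27 genes were higher, compared with 0.598% of all tested genes.

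**Figure D5:**
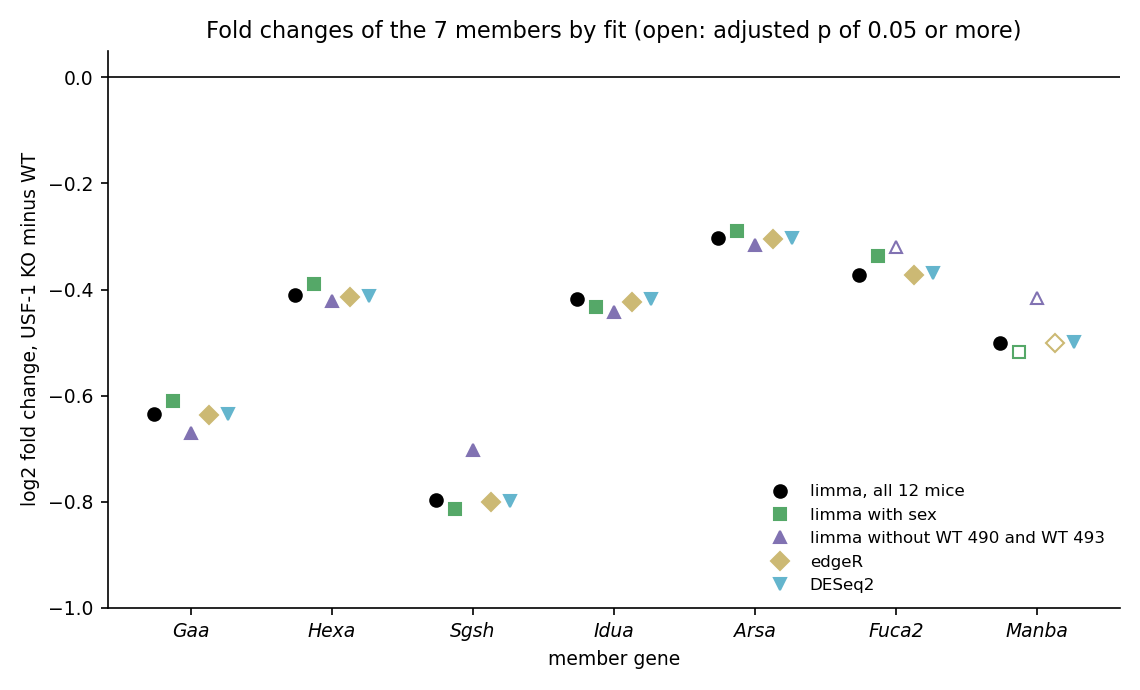
Log2 fold change (USF-1 KO minus WT) of the 7 called genes in limma with all 12 mice, with sex as a covariate and without WT 490 and WT 493, and in edgeR and DESeq2 on recovered reads; open symbols have an adjusted p of 0.05 or more. All symbols lie below 0, Gaa stays between −0.67 and −0.61, and the open symbols belong to Fuca2 and Manba.

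By the labels, the sexes were unequal between the genotypes, so the comparison was repeated with sex as a covariate. Again 7 genes were lower, compared with 0.472% of all tested genes, and 0 were higher, compared with 0.0659%. Of the 7 genes, 6 had also passed without the covariate: Manba had an adjusted p of 0.0827 and was replaced by Aga, with a log2 fold change of −0.71 (limma adjusted p = 0.0310). All 7 genes called without the covariate had lower means in USF-1 KO in females and in males. For the interaction of sex and genotype, 0 of the 27 genes and 0% of all tested genes passed (limma), and 3 had an unadjusted p under 0.05. These were Gla, with log2 fold changes of 0.07 in females and −0.31 in males, Fuca1, with 0.06 and −0.28, and Fuca2, with −0.21 and −0.47. No gene of the 27 had an adjusted interaction p below 0.9999, and groups of 2 mice enter these values.

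Other lysosomal genes were taken from lists written from general knowledge of the lysosome, with earlier results of these data known. Of 10 tested glycan-degrading genes outside the 27, 2 fell and 9 were negative, with a median log2 fold change of −0.14. Over all tested genes, 0.741% were called lower and 50.2% were negative. Without WT 490 and WT 493, 0 of the 10 were called lower, compared with 0.263% of all tested genes. Ctsa, the protective protein that keeps Neu1 and Glb1 in a stable complex, was among those that fell, with 2510 ± 155 normalised counts in WT and 2127 ± 129 in USF-1 KO (log2 fold change −0.24, limma adjusted p = 0.0415). It did not pass without WT 490 and WT 493, where its adjusted p was 0.208.

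Of 21 tested lysosomal proteases and lipases, 2 fell and 18 were negative, compared with 0.741% and 50.2% of all tested genes. Their median was −0.19. Tpp1, the tripeptidyl peptidase missing in a neuronal ceroid lipofuscinosis, had a log2 fold change of −0.46 (limma adjusted p = 2.71e-04), and Dpp7, a dipeptidyl peptidase, had 596 ± 41.0 normalised counts in WT and 53.4 ± 18.6 in USF-1 KO (−3.54, limma adjusted p = 8.25e-07). In DESeq2, 7 of the 21 were lower and 1 was higher, compared with 2.64% and 0.713% of all tested genes. The membrane proteins and V-ATPase subunits, which form and acidify the lysosome, had a median of 0.00. Of their 24 genes, 0 passed in limma, 0 passed in edgeR, 7 had an unadjusted p under 0.05 and 3 passed in DESeq2, 2 of them lower. Of the 9 genes of mannose 6-phosphate sorting, 1 fell: Igf2r, the receptor that carries tagged hydrolases to the lysosome, had 1324 ± 114 normalised counts in WT and 891 ± 55.7 in USF-1 KO (−0.57, limma adjusted p = 3.11e-04).

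Of the other factors known to bind E-boxes, Usf2, the partner of USF-1, had a log2 fold change of 0.06 (limma adjusted p = 0.468). Tfeb and Tfe3, regulators of lysosomal genes, had −0.25 (0.257) and 0.01 (0.943), and Mitf had −0.47 (0.308). These did not pass the threshold, though Tfeb and Mitf had an unadjusted p under 0.05 (limma). Tfec was below the limit on the mean and was not tested.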

How the data were processed

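RNA was isolated from hippocampi with a miRNA kit, and libraries were made with NEBNext Ultra II. According to the methods, the authors aligned reads with STAR in the RNA-Seq app of Illumina Basespace and used DESeq2. The submitters' processing notes name STAR 2.5.0a, edgeR 3.22.2 and mm10. The read counter, annotation and strand setting are not given in the sources used here. The deposited values are a signal, namely counts of reads divided by a size factor for each library, and reads recovered from it were whole within a tolerance of 0.01.

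Genotypes were compared with limma 3.58.1 (R 4.3.3) in a two-sided fit with a mean-variance trend and no covariate. Values entered as log2 of the normalised count plus 1, for the 18221 genes with a mean of at least 10, with Benjamini-Hochberg adjustment over these genes and a threshold of 0.05. Fold changes are on that scale and understate changes of low genes. Alternatives were pseudocounts of 0.5 and 5, no limit or a mean of at least 50, equal totals, quantile normalisation, sex as a covariate, no trend, edgeR 4.0.16 (quasi-likelihood, TMM) and DESeq2 1.42.0 on recovered reads, an adjusted p under 0.1, and fits that left out each mouse in turn or the mice with choroid plexus markers over 4 times the median. The main limma fit, edgeR, DESeq2 and the interaction fit were tested on simulated counts. The other alternatives, the recovery of reads and the searches of promoters and neighbours were not. No library was a repeat of another (lowest chi-square per degree of freedom 4.24). The limma p-values weigh the difference between genotype means against the spread between these mice, with variances moderated across the tested genes.

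All 27 genes are accounted for. Genes past the threshold or with an unadjusted p under 0.05, the highest and lowest per kb, neighbours within 10 kb or overlapping, and genes of the other lists past the threshold are named with values, except for a result that is not reported here. The other E-box factors and Eif4a3 were named after their values were seen. The 27 genes and the lists were chosen with earlier results of these data known. Of the gene identifiers, 55141 were in GENCODE M21, 54821 with the same coordinates, and exon lengths were taken from it. Python 3.11.15 with matplotlib 3.10.9 was used for the plots.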

Additional observations from a re-analysis of the deposited data

Results flagged for a closer look

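In 3 of the 54 groups of 6 mice (27 genes in 2 genotypes), 1 mouse stood apart from the others by Dixon's criterion, which marks about 5% of groups by chance. Naglu had 311 normalised counts in WT 493, compared with 204 to 238 in the other 5 WT mice, and WT 493 is the mouse with the highest choroid plexus markers. Idua had 392 in KO 564, compared with 351 to 364 in the other USF-1 KO mice. This value lies on the side of the WT mice but below the lowest of them. Ids had 14588 in WT 522, compared with 10249 to 11626 in the other WT mice.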

How the results depend on the processing

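Of the 27 genes, between 5 and 10 were lower and 0 were higher under every alternative run. At the threshold of 0.05, 0.263% (without WT 490 and WT 493) to 2.64% (DESeq2) of all tested genes were called lower. Those called higher numbered 9 to 130. For the 27 genes, the count was 6 to 9 when 1 mouse was left out. In those fits, 55 to 407 of all 18221 tested genes were called lower. Gaa, Hexa, Sgsh, Idua and Arsa passed in 23 of 23 alternatives that kept the threshold of 0.05, and Fuca2 in 22 of 23, with the exception of the fit without WT 490 and WT 493. Manba passed in 8 of 23, with adjusted p from 0.00170 (DESeq2) to 0.236 (without both mice). The highest adjusted p over these alternatives was 5.41e-04 for Gaa, 0.0171 for Hexa, 0.0273 for Sgsh, 0.0199 for Idua, 0.0412 for Arsa and 0.0920 for Fuca2. The 17 genes with an unadjusted p under 0.05 kept the sign of their fold change in these alternatives. Without WT 490 and WT 493, Man2b2, Ctbs and Sumf1 turned from −0.08, −0.01 and −0.04 to 0.00, 0.03 and 0.02 on the log2 scale. The cause of the differences between fits was not tested. No paired analysis was possible because the labels give each mouse a number of its own. Counts near 100, as for Aga, limit the precision of the lowest genes.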
